A study of Mus musculus with 6 samples.

Results

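Astrocytes are the star-shaped glial cells of the brain, and 10 genes that mark them were followed here in the lateral septum of mice fed olanzapine, a second-generation antipsychotic. The genes were taken by symbol from the 35415 genes of the deposited tables: Gfap, Vim, Slc1a2, Slc1a3, Gja1, Gjb6, Aqp4, Aldh1l1, S100b and Sox9. The mice were female C57BL/6 animals of the WT genotype, about 8 weeks old when obtained, and after 1 week of acclimation they ate either maintenance feed (control) or the same feed with 50 mg olanzapine per kg for 12 weeks. Lateral septum tissue from 3 mice was pooled for each RNA-seq library, and 3 pools per group were sequenced, so a value is that of a pool and not of an animal. The deposited columns name the olanzapine libraries with a short form of metabolic syndrome.

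Astrocytes clear glutamate and potassium released by neurons, pass ions and metabolites among themselves through gap junctions, and wrap blood vessels with endfeet that are rich in water channels. Their intermediate filaments, built from glial fibrillary acidic protein and vimentin, are made in larger amounts when astrocytes become reactive, as after injury. No marker is exclusive to them: vimentin and Sox9 are also found in ependyma, the ciliated lining of the ventricles that borders the septum, vimentin in blood vessels as well, and Aldh1l1 in liver.

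The counts on genes summed to between 38208153 and 39868872 per library, and 17255 genes were tested with the quasi-likelihood method of edgeR. All 10 astrocyte genes were among them. A gene passed the test at a Benjamini-Hochberg adjusted p under 0.05 over all genes tested, and it was a differentially expressed gene (DEG) when its log2 fold change was also beyond 1 in size. Levels are given as FPKM, the fragments of a gene scaled to its length and to the size of the library, and fold changes as olanzapine over control. Where 3 values are listed for a group, they stand in the order of pools 1, 2 and 3. The lateral septum neuron list, with Sst, Gad1 and Slc32a1 as its genes of highest level, summed to between 558 and 674 FPKM in the pools. Choroid plexus RNA differed widely among the pools of both groups, its list of 10 genes summing to 109, 2220 and 6086 FPKM in the control pools, and to 974, 3967 and 93.2 FPKM with olanzapine.

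None of the 10 astrocyte genes passed the test, where 2.32% of all genes tested did, 0.493% lower and 1.83% higher, and none was a DEG, where 1.01% of all genes were. The fitted log2 fold change was negative for 7 of the 10 genes and positive for 3, against a negative value in 49.3% of all genes. The median over the 10 genes was -0.22, and the median over all genes was 0.0039. DESeq2 put 2 of the 10 past the threshold as lower (Sox9 and Vim), where it called 2.40% of the 19070 genes with an adjusted p lower, and limma on log2(FPKM + 1) put 0, where it called 1.85% of its genes in either direction. At an unadjusted edgeR p under 0.05, 5 of the 10 genes were lower with olanzapine (Sox9, Vim, Slc1a2, Aqp4 and Gja1) and 0 were higher, with 8.40% of all genes lower and 9.19% higher by that rule. For 4 of them (Sox9, Vim, Slc1a2 and Aqp4), the normalized counts of the olanzapine pools all lay below those of the control pools, which was so for 11.0% of all genes. In bulk tissue, fewer cells of a type and less RNA per cell cannot be told apart, and this holds for each value that follows.

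**Figure D1:**
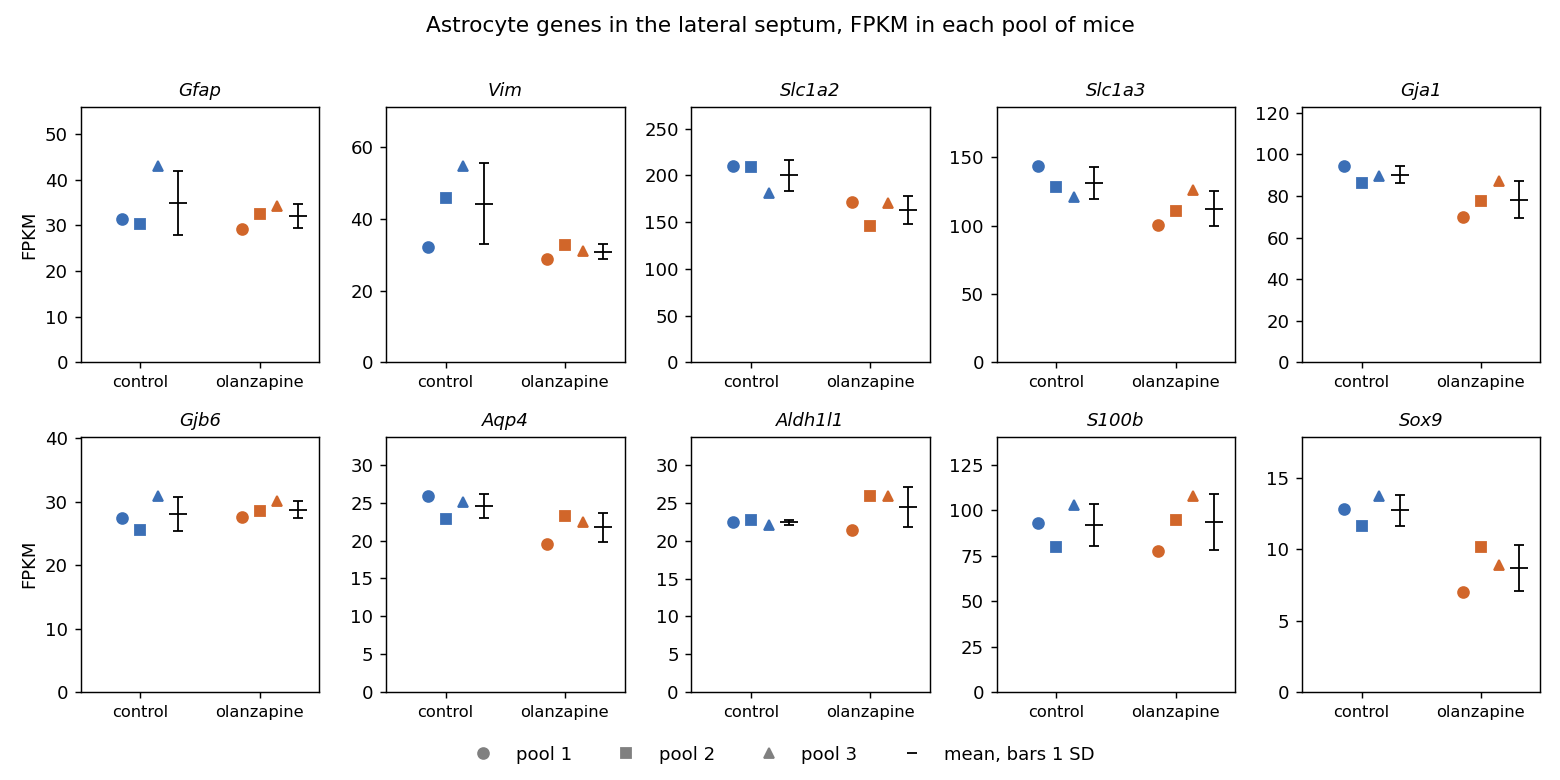
FPKM (vertical axes, from 0) of the 10 astrocyte genes in each of the 3 control and 3 olanzapine pools, with the mean and 1 SD of each group at the side of its points. Sox9 and Slc1a2 are the genes whose FPKM ranges do not overlap between the groups, and olanzapine pool 1 is the lowest pool in 8 of the 10 panels.

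By level, Slc1a2 stood first in both groups, at 200.2 ± 16.4 FPKM (SD, n = 3 pools) in control and 163 ± 14.5 FPKM in olanzapine. Slc1a3 was the next, at 131 ± 11.4 FPKM in control and 113 ± 12.7 FPKM in olanzapine, and Sox9 the last, at 12.7 ± 1.08 FPKM and 8.69 ± 1.60 FPKM. Between them in the control pools came S100b, Gja1, Vim, Gfap, Gjb6, Aqp4 and Aldh1l1, in this order. Neighbours in that order whose pools overlapped were S100b and Gja1, Vim and Gfap, Gfap and Gjb6, and Gjb6 and Aqp4. In the olanzapine pools Gfap stood above Vim and Aldh1l1 above Aqp4, the reverse of the control order, and in both cases the ranges of the olanzapine pools overlapped.

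Gfap and Vim encode the filament proteins. Gfap (chromosome 11, 102887336 to 102900912, minus strand, GRCm38) was at 31.4, 30.3 and 43.0 FPKM in the control pools and at 29.3, 32.6 and 34.3 FPKM in the olanzapine pools. Only control pool 3 stood above the rest, and the groups overlapped. Its log2 fold change was -0.14 (SE 0.13, 95% interval -0.45 to 0.16, edgeR adjusted p = 0.624). Without control pool 3 the value was 0.03.

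Vim (chromosome 2, 13573927 to 13582826, plus strand, GRCm38) was at 32.2, 45.9 and 54.8 FPKM in the control pools and at 28.7, 32.8 and 30.9 FPKM in the olanzapine pools. The control pools ranged widely while the olanzapine pools sat close together, at the level of control pool 1. In normalized counts the groups did not overlap, since the lowest control pool had 2356 and the highest olanzapine pool 2272. The log2 fold change was -0.55 (SE 0.16, 95% interval -0.92 to -0.17, unadjusted p = 0.0105, edgeR adjusted p = 0.144). Without control pool 1 it was -0.72 with an adjusted p of 0.0285, and without control pool 3 it was -0.36 with an adjusted p of 0.299.

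In the control group both Vim and the ependyma list were lowest in pool 1 and highest in pool 3. The 10 genes of that list summed to 193, 233 and 303 FPKM in the control pools, and to 109, 221 and 196 FPKM with olanzapine. With a score of the ependyma list as a covariate the log2 fold change of Vim was -0.33 (edgeR adjusted p = 0.318), and with a choroid plexus score it was -0.45 (edgeR adjusted p = 0.140).

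The promoters of the filament pair are shown because the ratio of Gfap to Vim, described further on, separated the groups. Each window runs from 250 bases before to 50 bases after the start of the RefSeq transcript (GRCm38.p6), read 5′ to 3′ along the gene. Capitals in the window of Gfap (chr11:102897151-102897450, minus strand) mark the letters TTCNNNGAA, the core that STAT factors are known to bind, and capitals in the window of Vim (chr2:13574061-13574360, plus strand) mark the letters TATAAA of the TATA box.
Gfap: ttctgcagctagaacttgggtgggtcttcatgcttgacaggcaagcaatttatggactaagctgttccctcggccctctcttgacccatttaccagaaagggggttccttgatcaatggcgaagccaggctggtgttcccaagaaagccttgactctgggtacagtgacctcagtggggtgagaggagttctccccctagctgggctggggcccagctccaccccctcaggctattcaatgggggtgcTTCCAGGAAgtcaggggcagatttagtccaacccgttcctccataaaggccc
Vim: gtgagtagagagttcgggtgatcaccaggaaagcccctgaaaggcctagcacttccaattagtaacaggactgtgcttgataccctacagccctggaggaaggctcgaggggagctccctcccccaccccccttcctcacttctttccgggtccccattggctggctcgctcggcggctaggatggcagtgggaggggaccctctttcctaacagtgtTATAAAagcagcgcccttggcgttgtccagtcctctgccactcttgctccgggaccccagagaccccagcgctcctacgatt
The match in Gfap began at base -2 and that in Vim at base -32 from the start of the transcript. On both strands, TTCNNNGAA was present in 8.3% and TATAAA in 13.6% of the 32851 promoter windows of the table. Windows were used for 8 of the 10 astrocyte genes (none for Sox9 and Aqp4). Among these, Gfap and Slc1a3 held the first and Vim and Slc1a3 the second. A match describes the letters only.

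Slc1a2 and Slc1a3 encode the glutamate transporters GLT-1 and GLAST, which take up most of the glutamate released at synapses. Slc1a2 (chromosome 2, 102658659 to 102790784, plus strand, GRCm38) was at 210.2, 209 and 181 FPKM in the control pools and at 172, 146 and 171 FPKM in the olanzapine pools. Each olanzapine pool lay below each control pool, by little in the case of control pool 3. Slc1a2 had a log2 fold change of -0.32 (SE 0.12, 95% interval -0.58 to -0.05, unadjusted p = 0.0257, edgeR adjusted p = 0.208). With the ependyma score as a covariate it was -0.45, with an adjusted p of 0.0489. Under the other 18 of 19 alternatives Slc1a2 missed the threshold. The adjusted p was 0.0697 with DESeq2, 0.0701 in edgeR with the choroid plexus score, and 0.180 to 0.437 in edgeR when a pool was left out.

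Slc1a3 (chromosome 15, 8634124 to 8710764, minus strand, GRCm38) was at 144, 129 and 121 FPKM in the control pools and at 101, 111 and 126 FPKM in the olanzapine pools. Olanzapine pool 3 was inside the control range, and the other two olanzapine pools were below it. Slc1a3 had a log2 fold change of -0.25 (SE 0.11, 95% interval -0.50 to 0.01, edgeR adjusted p = 0.296). The window at its RefSeq start (chr15:8710758-8711057, minus strand) is shown because it was the one window among the 8 that held both motifs. The capitals are TTTATA, the TATA box letters read on the other strand, from base -161, and TTCCAAGAA, a TTCNNNGAA match, from base -96.
Slc1a3: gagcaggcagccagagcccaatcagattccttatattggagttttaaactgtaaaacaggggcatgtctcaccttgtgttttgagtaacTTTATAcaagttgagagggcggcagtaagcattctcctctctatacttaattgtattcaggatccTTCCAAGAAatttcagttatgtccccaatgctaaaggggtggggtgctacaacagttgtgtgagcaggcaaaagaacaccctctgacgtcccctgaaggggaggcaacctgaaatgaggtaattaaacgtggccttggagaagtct
The ratio of Slc1a2 to Slc1a3 within a pool was 1.46, 1.62 and 1.49 in the control pools, against 1.71, 1.32 and 1.36 with olanzapine. These ranges overlapped, and the difference of the group means, -0.07 on the log2 scale, gave an exact permutation p of 0.6.

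Gja1 and Gjb6 encode connexin 43 and connexin 30, the subunits of astrocyte gap junctions. Gja1 (chromosome 10, 56377330 to 56402513, plus strand, GRCm38) was at 94.4, 86.4 and 89.7 FPKM in the control pools and at 69.7, 77.6 and 87.3 FPKM in the olanzapine pools. The olanzapine pools spread more than the control pools, and pool 3 reached the control range. The log2 fold change of Gja1 was -0.23 (SE 0.09, unadjusted p = 0.0380, edgeR adjusted p = 0.249). Gjb6 (chromosome 14, 57123303 to 57133611, minus strand, GRCm38) was at 27.5, 25.6 and 31.0 FPKM in the control pools and at 27.5, 28.6 and 30.1 FPKM in the olanzapine pools. All olanzapine values of Gjb6 lay inside the control range. Its log2 fold change was 0.01 (SE 0.08, edgeR adjusted p = 0.952). The ratio of Gja1 to Gjb6 ran from 2.89 to 3.43 in the control pools and from 2.53 to 2.90 in the olanzapine pools, with a difference of -0.25 on the log2 scale and an exact permutation p of 0.2.

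Aqp4, the water channel of the endfeet, was at 26.0, 22.9 and 25.1 FPKM in the control pools and at 19.6, 23.2 and 22.4 FPKM in the olanzapine pools. In FPKM the groups overlapped through olanzapine pool 2, whereas in normalized counts they did not, with 5397 in the lowest control pool and 5260 in the highest olanzapine pool. The log2 fold change was -0.20 (SE 0.08, 95% interval -0.39 to -0.01, unadjusted p = 0.0379, edgeR adjusted p = 0.248). The ratio of Aqp4 to Gja1 was between 0.265 and 0.279 in the control pools and between 0.257 and 0.299 in the olanzapine pools, with an exact permutation p of 0.8 for the difference of 0.03 on the log2 scale.

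**Figure D2:**
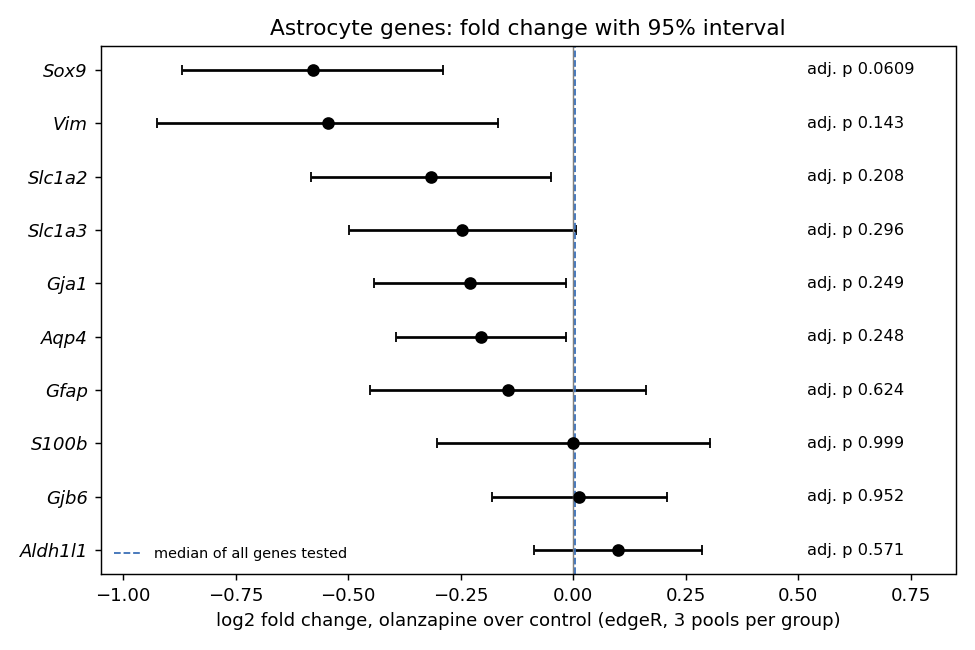
Log2 fold change of the 10 astrocyte genes (horizontal axis, olanzapine over control, edgeR) with 95% intervals as bars, the median of all genes tested as a dashed line, and the adjusted p of each gene at the right. The values run from -0.58 for Sox9 to 0.10 for Aldh1l1, the intervals of 5 genes lie wholly below 0, and no adjusted p is under 0.05.

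Aldh1l1 encodes a cytosolic folate enzyme that is widely used to label astrocytes, and S100b a calcium-binding protein. Aldh1l1 (chromosome 6, 90486427 to 90600203, plus strand, GRCm38) was at 22.4, 22.8 and 22.1 FPKM in the control pools and at 21.4, 26.0 and 26.0 FPKM in the olanzapine pools. Olanzapine pools 2 and 3 were above the control pools and pool 1 was below them. Aldh1l1 had a log2 fold change of 0.10 (SE 0.08, edgeR adjusted p = 0.571). It was 0.17 without olanzapine pool 1 and 0.05 without olanzapine pool 3. Aldh1l1 is also a liver gene, and Alb, the albumin gene of hepatocytes, was at 3.30 to 6.18 FPKM in control pools and at 63.7, 84.2 and 66.9 FPKM in the olanzapine pools. Its part in the level of Aldh1l1 was not tested.

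S100b (chromosome 10, 76253853 to 76261159, plus strand, GRCm38) was at 93.1, 80.0 and 103 FPKM in the control pools and at 77.7, 94.5 and 108 FPKM in the olanzapine pools. Both groups spanned nearly the same range. For S100b the log2 fold change was 0.0004 (SE 0.13, edgeR adjusted p = 0.999). S100b overlaps Dip2a on the opposite strand, which had between 3462 and 3961 counts per library, and since the strand setting of the counting is not given in the sources used here, reads of the pair may not be separated.

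Sox9, a transcription factor that sets up and maintains the glial fate, had the most negative log2 fold change of the 10 genes in the edgeR fit of all pools. Vim was more negative with an offset for gene length (-0.59 against -0.57 for Sox9). The same held without control pool 1 (-0.72 against -0.57) and without olanzapine pool 1 (-0.51 against -0.46). Sox9 (chromosome 11, 112782224 to 112787760, plus strand, GRCm38) was at 12.8, 11.6 and 13.8 FPKM in the control pools and at 6.98, 10.2 and 8.90 FPKM in the olanzapine pools. Each olanzapine pool lay below each control pool, and pool 1 was the lowest. In normalized counts the means were 2079 ± 173 in control and 1392 ± 226 in olanzapine (SD, n = 3 pools). The log2 fold change was -0.58 (SE 0.13, 95% interval -0.87 to -0.29, unadjusted p = 0.0018), and the edgeR adjusted p of 0.0609 was above the threshold. By unadjusted p, Sox9 ranked 500 of 17255 genes. Without olanzapine pool 1, the lowest, the value was -0.46 and the edgeR adjusted p 0.0437. DESeq2, with an adjusted p for 19070 genes, gave -0.58 with an adjusted p of 0.00164. Sox9 missed the threshold under 16 of 19 alternatives. Its adjusted p was 0.116 in edgeR with a block for the replicate number, 0.127 with limma on log2(FPKM + 1) and 0.184 in edgeR without control pool 1.

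Ratios between genes within a pool do not depend on how libraries are scaled, and 7 pairs were compared. With 3 pools against 3, the smallest p that the two-sided exact permutation test can give is 0.1, so no pair could reach 0.05. In 2 of the 7 pairs the groups did not overlap. The ratio of Sox9 to Aldh1l1 was 0.573, 0.510 and 0.622 in the control pools, against 0.326, 0.392 and 0.343 with olanzapine. The olanzapine ratios were all lower, by a difference of -0.68 on the log2 scale (exact permutation p = 0.1, adjusted over the 7 pairs 0.35). For Gfap to Vim the ratio was 0.974, 0.660 and 0.785 in the control pools, against 1.02, 0.993 and 1.11 with olanzapine. The olanzapine ratios were all higher, narrowly so against control pool 1, by 0.39 on the log2 scale (exact permutation p = 0.1, adjusted 0.35). It was 0.25 without control pool 2 and 0.53 without control pool 1, and stayed between these values when another pool was left out, whereas the difference of Sox9 to Aldh1l1 stayed between -0.76 and -0.62. The ratios of Gfap to Aldh1l1 and of Gfap to S100b overlapped between the groups, with differences of -0.22 and -0.13 on the log2 scale and exact permutation p values of 0.2 and 0.4. Without control pool 3, in which Gfap was highest, these differences were -0.0543 and -0.0488, and that of Gfap to S100b was -0.0645 without olanzapine pool 3 and -0.205 without control pool 1.

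**Figure D3:**
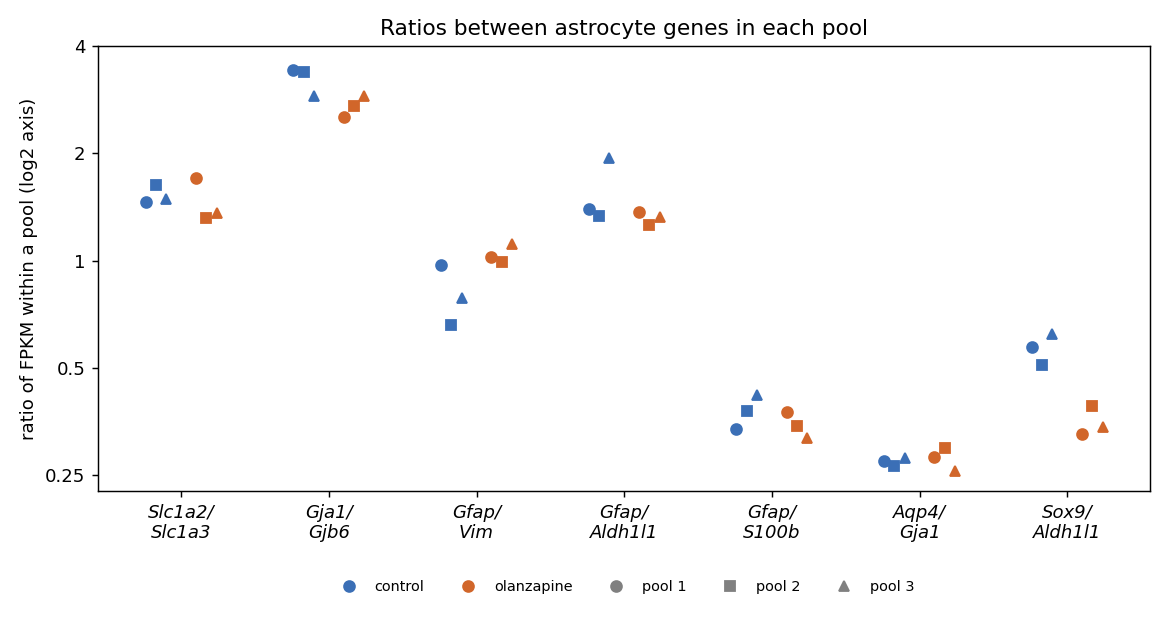
Ratio of the FPKM of a pair of astrocyte genes in each pool (vertical axis, log2 scale), for 7 pairs, with control pools and olanzapine pools side by side. Gfap to Vim and Sox9 to Aldh1l1 are the pairs whose pools do not overlap, and the smallest p the exact test can give for any pair is 0.1.

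The pools differed among themselves. Olanzapine pool 1 had the lowest FPKM of all 6 pools for 8 of the 10 astrocyte genes, with Slc1a2 (lowest in olanzapine pool 2) and Gjb6 (lowest in control pool 2) as the exceptions. The highest pool was control pool 1 for 4 genes, control pool 3 for 4 and olanzapine pool 3 for 2. Summed over the 10 genes, the level was 694, 663 and 685 FPKM in the control pools and 554, 583 and 645 FPKM in the olanzapine pools. The group means were 681 ± 15.7 and 594 ± 46.6 FPKM (SD, n = 3 pools). The pools did not overlap in this sum, and Slc1a2 and Slc1a3, the genes of highest level, weigh most in it. In olanzapine pool 1 the neuronal gene Snap25 was at 790 FPKM, against 446 to 495 FPKM in the other pools, and the neuron list summed to 2068 FPKM against 1519 to 1690 FPKM. Its part in the low astrocyte values of that pool was not tested. The 10 genes had a median of -0.16 on the log2 scale without olanzapine pool 1, in place of -0.22.

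Beyond the 10 genes, 142 genes in 10 lists of astrocyte functions and states were described, and 138 of them were tested. Of these, 4 fell with olanzapine (Ntrk2, Slc16a1, Dag1 and Synm) and 1 rose (Lcn2), that is 2.90% and 0.725%, beside 0.493% and 1.83% of all genes. The log2 fold change was negative for 96 and positive for 42, with a median of -0.12. At an unadjusted p under 0.05, 34 of the 138 (24.6%) were lower and 2 were higher, beside 8.40% of all genes lower and 9.19% higher. For each list named further on, the same 8.40% of lower genes at an unadjusted p, and 2.40% with DESeq2, are the shares over all genes. The olanzapine pools all lay below the control pools for 33 of the 138 (23.9%), beside 11.0% of all genes. The calls of lower genes moved with the pools that entered: 0 genes of the lists passed as lower without control pool 1, 2 or 3, 1 without olanzapine pool 2 (Sntb1) or 3 (Synm), and 6 without olanzapine pool 1, Dag1, Slc16a1 and Synm among them. Ntrk2 was lost whichever pool was left out. The fitted values moved less, with log2 fold changes of -0.33 to -0.30 for Dag1, -0.44 to -0.38 for Ntrk2, -0.51 to -0.41 for Slc16a1 and -0.70 to -0.48 for Synm when a pool was left out.

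Ntrk2, which encodes the BDNF receptor TrkB and whose truncated form is abundant in astrocytes, was at 37.9, 36.3 and 36.9 FPKM in the control pools and at 27.1, 28.4 and 29.6 FPKM in the olanzapine pools. It fell by 0.41 on the log2 scale (SE 0.08, edgeR adjusted p = 0.0363), and neurons express this gene too. Ntrk2 is long, at 29517 bases in the deposited lengths, and with an offset for gene length its log2 fold change was -0.32 and its edgeR adjusted p 0.0940, above the threshold. The other receptors named were Ntsr2, a neurotensin receptor, with a log2 fold change of 0.07, and S1pr1, a receptor for sphingosine-1-phosphate, with -0.07. Of the 13 receptor genes 10 had a negative value, and the list median was -0.27, the second lowest of the 10 lists after that of the A1-type genes.

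Dag1 encodes dystroglycan, which ties the endfoot to the basement membrane. It was at 21.2, 21.4 and 20.5 FPKM in the control pools and at 17.2 FPKM in each olanzapine pool, and fell by 0.31 on the log2 scale (SE 0.06, edgeR adjusted p = 0.0469). With the choroid plexus score as a covariate the value was about as large, -0.32, at an edgeR adjusted p of 0.0537. In the same list of 12 endfoot and scaffold genes, Gpr37l1 and Mlc1, both membrane proteins of astrocytes, had log2 fold changes of -0.16 and -0.15 and did not pass.

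Slc16a1 encodes the lactate transporter MCT1. It was at 8.63, 7.95 and 9.21 FPKM in the control pools and at 6.60, 6.55 and 5.89 FPKM in the olanzapine pools, and fell by 0.46 on the log2 scale (SE 0.09, edgeR adjusted p = 0.0380). The value was nearly the same, -0.45, with the choroid plexus score as a covariate, at an edgeR adjusted p of 0.0537. Blood vessels and oligodendrocytes also express Slc16a1, and the 10 genes of the brain endothelium list summed to 51.6 to 58.1 FPKM in control pools and to 60.7, 39.2 and 33.9 FPKM in the olanzapine pools. The part of endothelium in the level of Slc16a1 was not tested. The metabolism list as a whole was evenly split, with 9 of 20 genes negative and a median of 0.01. Its genes of highest level, Mt3, a zinc-binding metallothionein, and Ldhb, a lactate dehydrogenase subunit, had log2 fold changes of -0.05 and 0.14.

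Synm encodes synemin, an intermediate filament protein that assembles with vimentin and Gfap. It was at 14.5, 13.1 and 13.7 FPKM in the control pools and at 8.15, 9.20 and 11.0 FPKM in the olanzapine pools. The groups did not overlap, and Synm fell by 0.57 on the log2 scale (SE 0.11, edgeR adjusted p = 0.0453), a value close to the fitted values of Vim and Sox9, which did not pass. With the gene-length offset its value was -0.52 (edgeR adjusted p = 0.0615), and with the ependyma score -0.51 (edgeR adjusted p = 0.0715). Lmna, the gene of the nuclear lamins A and C, had a log2 fold change of 0.14. Desi1, which stands in the same list, encodes a desumoylating enzyme and no filament protein, and had 0.15.

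Lcn2 encodes lipocalin 2, an iron-siderophore binding protein that reactive astrocytes secrete and that liver also makes. Lcn2 was at 0.206, 0.265 and 0.297 FPKM in the control pools, from 7 to 10 counts, and at 2.01, 2.79 and 3.05 FPKM in the olanzapine pools, from 66 to 101 counts. It rose by 3.31 on the log2 scale (SE 0.34, edgeR adjusted p = 0.00359) and was the DEG among the 138 genes. In the same pools 12 of 12 hepatocyte genes rose, beside 1.83% of all genes, with a median log2 fold change of 4.01. Their sums were 7.98 to 13.8 FPKM in control pools and 146 to 190 FPKM in olanzapine pools. Their part in the level of Lcn2 was not tested. Of the other 9 pan-reactive genes tested 0 passed with edgeR, DESeq2 or limma, and 1 was lower at an unadjusted p under 0.05. Hspb1, a small heat shock protein, and Serpina3n, a protease inhibitor, had log2 fold changes of -0.29 and 0.02.

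In the lists of A1-type and A2-type reactive genes, named after astrocyte states that inflammation and ischaemia induce, 0 of 11 and 0 of 9 tested genes passed with edgeR, while 4 (36.4%) and 3 (33.3%) were lower at an unadjusted p under 0.05 and DESeq2 called 0 and 2. Median log2 fold changes were -0.33 and 0.13. H2-D1, a class I MHC gene, had -0.37, Fkbp5, a glucocorticoid-induced cochaperone, 0.03, and Amigo2, an adhesion molecule, -0.33. Among the A2-type genes, S100a10 had 0.13, Cd14 0.17 and Tm4sf1, also an endothelial gene, -0.68 (edgeR adjusted p = 0.152). Ptx3 and Slc10a6, of the same list, were at 0 in control pool 3 and were not tested.

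Among 18 transmitter and ion clearance genes 16 had a negative log2 fold change, with a median of -0.18, and 0 passed with edgeR, while 6 (33.3%) were lower at an unadjusted p under 0.05, beside 8.40% of all genes, and 2 with DESeq2 (Slc4a4 and Slc7a11), beside 2.40% of all genes. Glul, the glutamine synthetase that converts the glutamate taken up, was at 779 to 938 FPKM in the olanzapine pools and at 815 to 849 FPKM in the control pools, with a log2 fold change of 0.02. Atp1b2, which encodes a subunit of the sodium pump, had a log2 fold change of -0.08.

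Of 19 genes for secreted proteins and lipid carriers 14 had negative values, with a median of -0.10, and 0 passed with edgeR (3, or 15.8%, lower at an unadjusted p under 0.05, and 1, Thbs1, with DESeq2). Cst3, the protease inhibitor cystatin C, Cpe, a carboxypeptidase, and Apoe, the main lipid carrier of the brain, had the highest levels in the astrocyte lists, with log2 fold changes of 0.03, -0.16 and -0.02. Of 19 astrocyte transcription factors 16 had negative values, with a median of -0.13, and 0 passed with edgeR (5, or 26.3%, lower at an unadjusted p under 0.05, and 1, Zbtb20, with DESeq2). Sox2, a partner of Sox9 in neural stem cells and astrocytes, was at 35.3, 31.1 and 33.8 FPKM in the control pools and at 22.97, 27.4 and 32.96 FPKM in the olanzapine pools. Its groups overlapped through olanzapine pool 3, and its log2 fold change was -0.29 (edgeR adjusted p = 0.284). The inhibitors of differentiation Id2 and Id4 had 0.27 and -0.13.

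**Figure D4:**
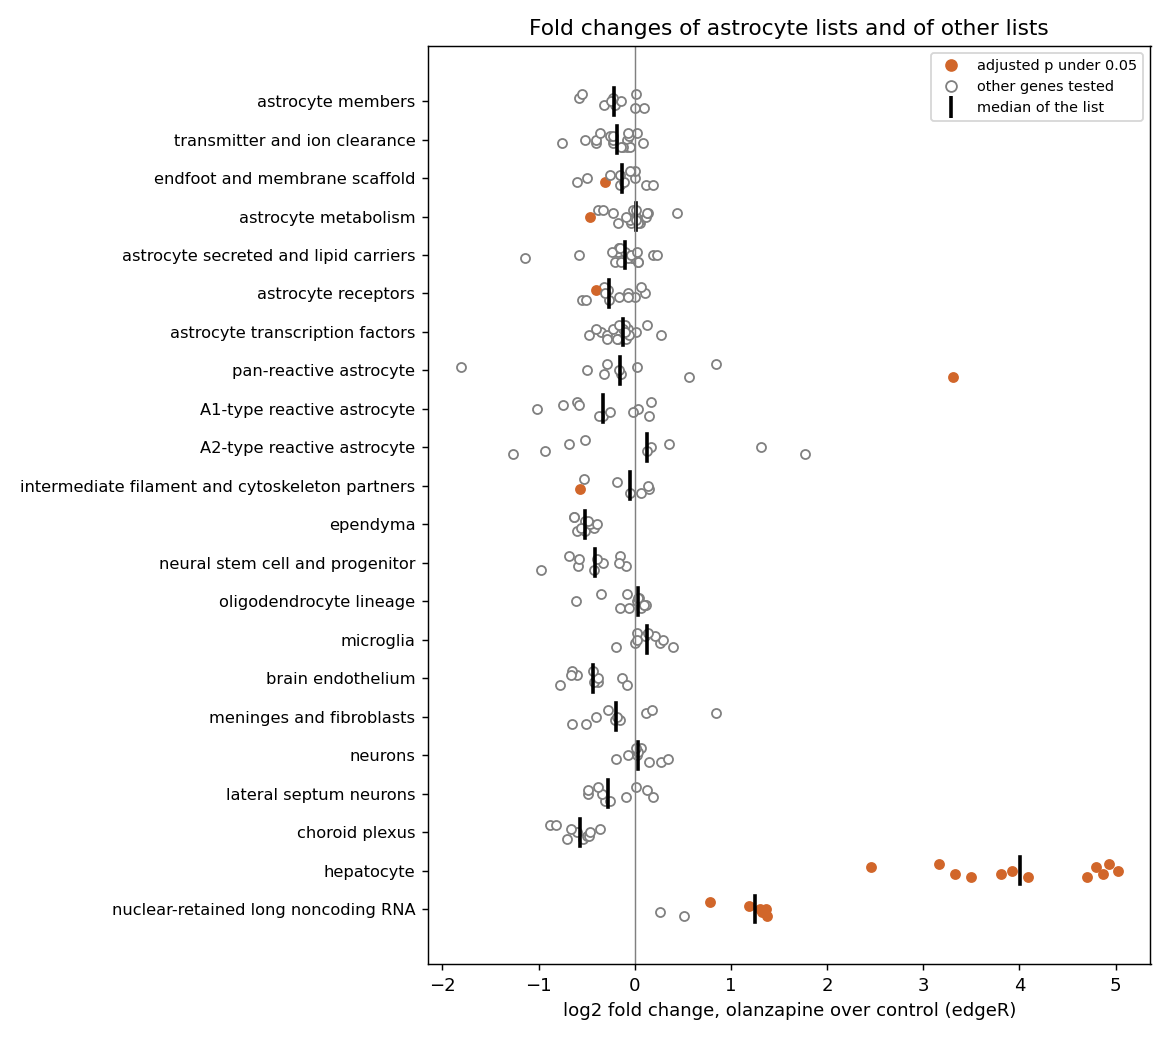
Log2 fold change (horizontal axis, olanzapine over control, edgeR) of each tested gene of the 10 astrocyte genes, of 10 wider astrocyte lists and of lists for other cell types and RNA classes (rows), with filled points for an adjusted p under 0.05 and a bar at the list median. Most astrocyte points lie near 0 and are open, though open ones reach -1.81 and 1.77 and Lcn2 is filled at 3.31. The 12 hepatocyte genes are filled, from 2.46 to 5.02. Of the 8 long noncoding RNAs 6 are filled, and that list reaches 1.38 at most.

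Lists of other cells that border or share astrocyte genes had values of the same sign. The ependyma list was negative in 10 of 10 genes with a median log2 fold change of -0.52, the neural stem cell and progenitor list in 10 of 10 with -0.41, and the brain endothelium list in 10 of 10 with -0.43. In each of these lists 0 genes passed with edgeR, while 2 (20.0%), 3 (30.0%) and 3 (30.0%) were lower at an unadjusted p under 0.05, and 0, 1 and 2 with DESeq2. Ependyma was lowest in olanzapine pool 1, at 109 FPKM, as were most astrocyte genes, and the progenitor list was also lowest there, at 34.4 FPKM against 40.6 to 56.1 FPKM elsewhere. The part of these cells in the values of Sox9, Sox2 and Vim, which they express, was not tested, apart from the ependyma covariate given for Sox9 and Vim. No score of the progenitor or endothelium list was used. With the ependyma score the log2 fold change of Sox9 was -0.41 (edgeR adjusted p = 0.0719). With the score of the choroid plexus, a further tissue, the value of Sox9 was -0.56 (edgeR adjusted p = 0.0796).

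The lists for oligodendrocytes, microglia and neurons had medians of 0.03, 0.12 and 0.03, with 0 genes past the threshold in edgeR. At an unadjusted p under 0.05, 2 oligodendrocyte genes and 1 microglial gene were lower, and 2 microglial genes were higher, and DESeq2 called 2 oligodendrocyte genes lower. The choroid plexus, meninges and fibroblast, and lateral septum neuron lists had medians of -0.57, -0.20 and -0.28, and 0 of their genes passed with edgeR or DESeq2. In these lists 0, 0 and 3 genes (30.0% of the last) were lower at an unadjusted p under 0.05, beside 8.40% of all genes. Of 8 nuclear-retained long noncoding RNAs, which stay in the nucleus after transcription, 6 (75.0%) rose, beside 1.83% of all genes, with a list median of 1.25. Meg3 was at 83.8 to 109 FPKM in control pools and at 218 to 273 FPKM in olanzapine pools. The part of these RNAs in the astrocyte values was not tested.

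**Figure D5:**
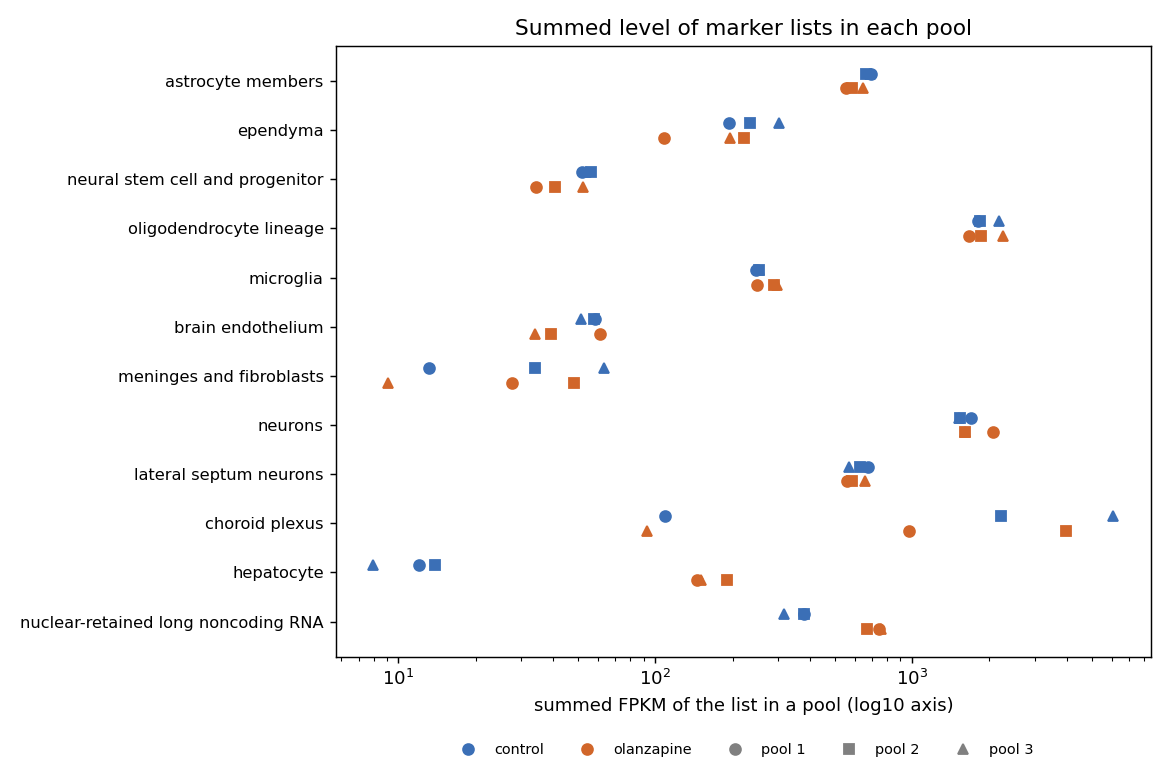
Summed FPKM of the 10 astrocyte genes and of 11 other lists (rows) in each pool (horizontal axis, log10 scale), control above and olanzapine below in each row. The astrocyte sums run from 663 to 694 FPKM in control and from 554 to 645 FPKM with olanzapine, without overlap. Choroid plexus runs from 93.2 to 6086 FPKM across both groups. The hepatocyte and long noncoding RNA sums separate the groups too.

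Gene length was compared with the fold change, since long and short transcripts can differ between libraries. The median log2 fold change of all genes was 0.06 for deposited lengths of 1000 to 2000 bases and -0.07 for 8000 to 12000 bases. Vim, at 1834 bases, and Sox9, at 4146 bases, were further below 0 than the medians of their length classes, 0.06 and -0.03, and Slc1a2, at 13535 bases, had -0.32 beside a class median of -0.06. With an offset for gene length 0 of the 10 astrocyte genes passed and their median was -0.19.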

How the data were processed

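RNA-seq libraries of lateral septum, 3 control and 3 olanzapine, each from a pool of 3 mice, were grouped by their labels. Per the labels and methods, the authors trimmed reads with fastp, aligned them with HISAT2 to mm10 and counted them with HTSeq, and they deposited raw counts and FPKM per gene; the annotation and the strand setting are not given in the sources used here. In all 13439 genes with over 50 counts in every library, the deposited FPKM was the count divided by length and library total (relative tolerance 1e-06), so it is no independent measure. A total of 0 columns of sample values were left unused and 0 rows lacked a gene name.

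Counts were normalized with TMM and tested with edgeR 4.0.16 in R 4.3.3 (quasi-likelihood F test, filterByExpr with minimum counts of 10 in a library and 15 in all). The SE is the size of the log2 fold change divided by the square root of F. Summed levels and ratios used FPKM, with exact permutation tests for the ratios. The code was tested on simulated data. There edgeR called 97 of 100 genes changed by 2 on the log2 scale, and 23 of 100 changed by 0.5. DESeq2 called 99 and 43 of them. Alternatives were DESeq2 1.42.0, limma 3.58.1 on log2(FPKM + 1) or log2(FPKM + 0.1), other normalizations and filters, a block for the replicate number, and leaving out each pool. A gene-length offset and choroid plexus and ependyma scores as covariates were added after seeing the data.

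The 10 genes and all lists were chosen with earlier results of these data known. The text names, from each wider astrocyte list, the genes that passed and those of highest mean FPKM up to 3 in all, and from other lists those of highest mean FPKM where a value of the astrocyte genes needed one. A result under this rule is not reported here. Genes outside this rule (Sntb1, Ptx3, Slc10a6, Slc4a4, Slc7a11, Thbs1, Zbtb20) were named after their values were seen. Nothing in the sources says how pools were formed beyond 3 mice each, so p-values measure the spread between pools. Depth was alike in all libraries, and the number of pools limits the precision.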

Additional observations from a re-analysis of the deposited data

How the results depend on the processing

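The count of astrocyte genes passing the test stayed at 0 under 14 of 20 alternatives and moved under the other 6: it was 2 with DESeq2 (Vim and Sox9), 1 without a count filter (Sox9), 1 with the ependyma score as a covariate (Slc1a2), 5 at an unadjusted p, and between 0 and 1 when a pool was left out (Vim without control pool 1, Sox9 without olanzapine pool 1). Under the replicate block it was also 0. Their median log2 fold change stayed between -0.28 and -0.16. In the wider lists, where 5 genes passed, the count was 36 at an unadjusted p, 13 with DESeq2, 3 at a mean count of at least 50 (where Lcn2, under that mean, was not tested), 1 with the replicate block, 2, 1 and 3 with limma on log2(FPKM + 1), on log2(FPKM + 0.1) and without a filter, 3 with the gene-length offset, and 1 to 7 when a pool was left out. Lcn2 passed wherever it was tested, with log2 fold changes from 1.52 (limma on log2(FPKM + 1)) to 3.58 (edgeR with the ependyma score). Dag1, Ntrk2, Slc16a1 and Synm missed the threshold under 9 to 11 of their alternatives. Over all genes 401 passed, 140 under the replicate block, 1093 with DESeq2, 721 with the ependyma score and 131 to 508 when a pool was left out. The cause of these shifts was not tested. Values near 0 changed sign. S100b had -0.0057 with DESeq2, -0.0044 with RLE factors, -0.0055 without a filter, -0.0145 with the choroid plexus score, -0.0038 with the replicate block, -0.0528 with the gene-length offset, and -0.12 to 0.10 when a pool was left out. Gjb6 had -0.0076 with the gene-length offset and -0.045 to 0.0917 when a pool was left out. Gfap had 0.0076 with the ependyma score and -0.23 to 0.0341 when a pool was left out. The log2 ratio difference of Aqp4 to Gja1 was -0.0219 to 0.0865 when a pool was left out, below 0 only without olanzapine pool 2. The replicate numbers were not taken to pair the pools, since same-numbered pools had correlations of -0.003, 0.062 and -0.255.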
